A study of Acomys cahirinus and Mus musculus with 6 samples.

Results

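The fibroblast growth factor (FGF) genes described here are 3 receptors (Fgfr1, Fgfr2 and Fgfr3), 5 ligands (Fgf1, Fgf2, Fgf7, Fgf10 and Fgf18) and 1 secreted binding protein (Fgfbp1). They were chosen by name, and all 9 were found among the 20381 genes of the deposited single-cell count table. FGF ligands are secreted proteins that bind receptor tyrosine kinases together with heparan sulphate chains, and the active receptor signals through RAS, RAF, MEK and ERK to ETS-family target genes and feedback inhibitors. In skin, Fgf7 and Fgf10 are known as mesenchymal ligands for the epithelial splice form of Fgfr2, Fgf2 as a ligand of the mesenchymal form of Fgfr1, and Fgfr3 as a receptor that restrains growth of cartilage. Fgfbp1 releases stored FGFs from the matrix and presents them to receptors. The counts are per gene, so the splice forms of a receptor were not separated.

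The series profiled healing ear punch wounds of the ear pinna by droplet single-cell RNA sequencing in 6 libraries, each the only library of its group. In wild-type spiny mice (Acomys), 4 libraries came from wounds injected from day 12 to day 15: 1 with DMSO as the control, and 1 each with an inhibitor of ERK, of ErbB2 or of FGFR1/2/3. In CD1 laboratory mice, 2 libraries came from wounds given local micro-beads at day 10, soaked in PBS or in recombinant FGF2 and NRG1. Neither age, dose nor the number of animals per library is stated in the labels. The FGFR inhibitor acts on the protein products of the 3 receptor genes and FGF2 protein was supplied on the beads, so the transcript counts of these genes measure neither the inhibition nor the supply. With 1 library a group, no test, p-value or standard error could be computed, and animal, library and treatment cannot be told apart.

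The 6 libraries held 39577 cells in 47 clusters and 17 named types, as annotated by the authors. The DMSO, ERK inhibitor, ErbB2 inhibitor and FGFR inhibitor libraries held 15363, 631, 10632 and 4782 cells, and the PBS and FGF2/NRG1 libraries 3065 and 5104. Total unique molecular identifiers (UMIs, each counting 1 captured transcript) ran from 7429819 with the ERK inhibitor to 70058081 with DMSO. Checked against marker genes, 13 of the 47 clusters are given by number rather than by name. Among them, cluster 34 carries a fibroblast name but has no fibroblast marker among its leading genes. Cluster 38 passed the check but is also given by number: it carries a dermal sheath and papilla name and is led by mural cell genes such as Rgs5 and Acta2. Clusters with no marker of any type among their leading genes kept their names. "Keratinocytes" below are the interfollicular basal, cycling basal and suprabasal cells outside the 5 interfollicular clusters given by number. Across the libraries, 184 cell barcodes occurred in more than 1 library, at most 49 in any pair. A level is in CPM, the UMIs of a gene divided by all UMIs of the class and multiplied by 1000000, and each interval is an exact 95% interval that covers counting error only. All reads carry mouse gene names, and a spiny mouse gene that diverged from the mouse may be undercounted, so levels were not compared between species. Levels of different genes were not compared either.

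In the mouse annotation used here (GENCODE vM21, build GRCm38), Fgfr1 lies at chr8:25513654-25575718 on the plus strand, Fgfr2 at chr7:130162451-133123350 on the minus strand, Fgfr3 at chr5:33721674-33737068 on the plus strand and Fgfbp1 at chr5:43978858-43981779 on the minus strand. Among the ligands, Fgf2 lies at chr3:37348346-37410108 on the plus strand, Fgf7 at chr2:126034658-126091185 on the plus strand and Fgf18 at chr11:33117430-33147400 on the minus strand. Fgf2 overlaps Nudt6, Fgf7 overlaps Fam227b and Fgf1 overlaps Arhgap26, each on the opposite strand, and the annotated span of Fgfr2 holds other genes. No label says whether strand was used in counting, and without it reads of such partners cannot be told apart.

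The receptors were counted in every library, whereas most ligands were nearly absent from the spiny mouse counts. Fgfr1 had 3912 UMIs over the 4 spiny mouse libraries and 2362 over the 2 mouse libraries. Fgfr2 had 7229 and 3001 UMIs, and Fgfr3 had 490 and 2765. Fgf1, Fgf2 and Fgf18 had 22, 24 and 24 UMIs in all 31408 spiny mouse cells, against 178, 320 and 119 in 8169 mouse cells. Fgf7, the keratinocyte growth factor, had 0 UMIs in the spiny mouse, which allows a level of up to 0.0173 CPM under that gene name, and 261 in the mouse. Fgf10 had 0 and 2 UMIs and is not described further. Fgfbp1 was the most counted of the set, with 289566 spiny mouse and 7717 mouse UMIs. A count of 0 in the spiny mouse is a count under a mouse name; 5345 of the 20381 genes were at 0 in all spiny mouse cells, against 986 in all mouse cells.

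Fgfr1, the receptor of mesenchymal cells, was highest in chondrocytes, fibroblasts and hair germ cells of both species. In the DMSO library its level was 399 CPM in chondrocytes (interval 362 to 440, 298 cells), 195 CPM in cluster 34 (146 to 256), 175 CPM in fibroblasts (152 to 202) and 140 CPM in hair germ and outer bulge cells (123 to 157). Chondrocytes thus held 25.0% of the Fgfr1 UMIs of that library, and their interval overlapped that of no other class. The next 3 classes had overlapping neighbours and are not ordered among themselves. Endothelium stood at 30.5 CPM, outer root sheath cells at 15.4 CPM, and cycling basal, basal, sebaceous and suprabasal cells at 9.71, 6.71, 5.10 and 5.03 CPM. Those last 4 levels were within 3-fold of the lowest other class and more than 10-fold below the highest. RNA free in the droplets can give counts in this range, and its part in these levels was not tested. The cycling basal clusters differed, with cluster 22 at 20.64 CPM (14.81 to 28), cluster 24 at 12.08 CPM and cluster 19 at 4.003 CPM (2.372 to 6.326). Clusters 1 and 31, basal by the authors' name but given by number, stood at 32.27 and 99.8 CPM. Cluster 44, cycling basal by name, stood at 19.88 CPM. After every cell was thinned to 1000 UMIs, 35.2% of DMSO chondrocytes and 1.76% of T-cells had an Fgfr1 UMI. Without thinning these shares were 62.4% and 3.01%, at median depths of 2316 and 1400 UMIs.

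The other spiny mouse libraries placed Fgfr1 in the same classes. Chondrocytes stood at 429 CPM with the ErbB2 inhibitor and 481 CPM with the FGFR inhibitor, fibroblasts at 219 and 260 CPM, and hair germ cells at 128 and 190 CPM. The ERK inhibitor library held only 5 chondrocytes and 5 fibroblasts, with 38 and 35 Fgfr1 UMIs, so no level is given for them; its hair germ cells stood at 155 CPM. In the mouse, fibroblasts (321 CPM, 249 to 408, 32 cells) and chondrocytes (300 CPM, 244 to 364, 36 cells) overlapped with PBS beads, ahead of hair germ cells at 144 CPM. In the FGF2/NRG1 library fibroblasts stood highest (223 CPM, 203 to 246), and only cluster 23 had an interval that overlapped theirs. Hair germ cells (145 CPM) and chondrocytes (136 CPM, 123 to 150) were lower and overlapped each other. Mouse basal keratinocytes stood at 10.5 and 11.8 CPM with PBS and FGF2/NRG1 beads. Within the mouse suprabasal class, cluster 41, with no suprabasal marker among its leading genes, stood at 76.6 CPM with PBS against 19.8 CPM for the class.

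**Figure D1:**
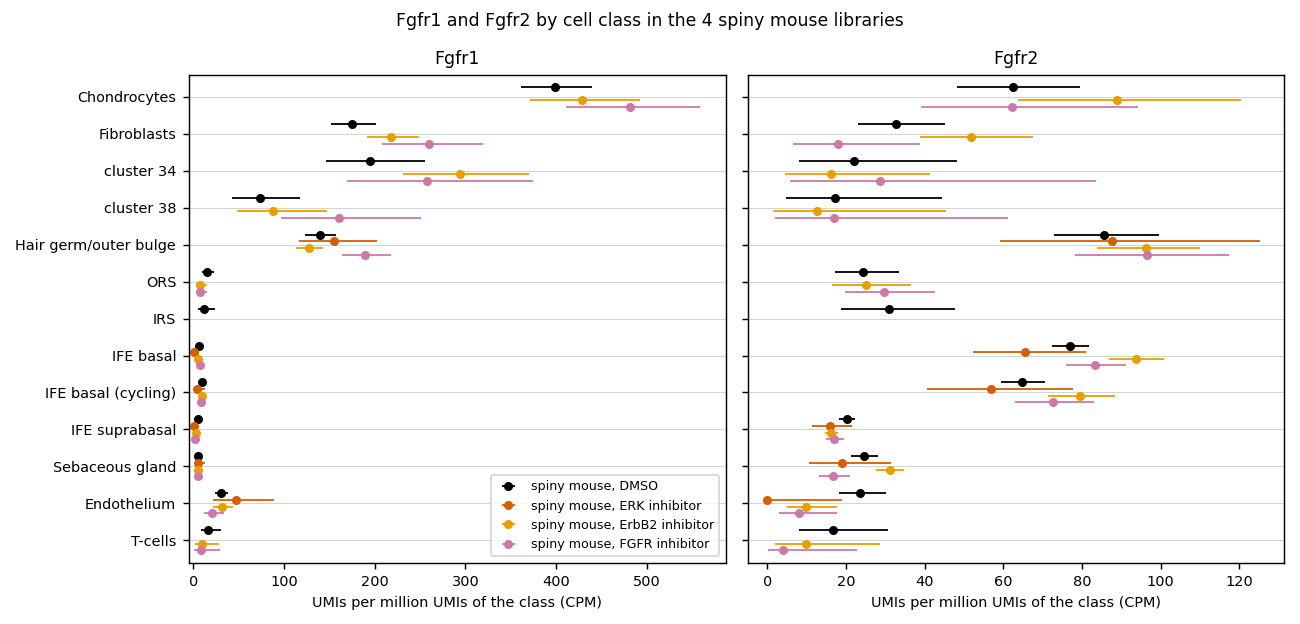
Levels of Fgfr1 and Fgfr2 (horizontal axes, CPM) by cell class (rows; IFE, interfollicular epidermis; ORS and IRS, outer and inner root sheath) in the 4 spiny mouse libraries, 1 colour each, with points for the level and bars for the exact counting interval. Fgfr1 is highest in chondrocytes (399 CPM with DMSO) and near 0 in the interfollicular rows, while Fgfr2 is high in hair germ and basal cells (85.5 and 77.0 CPM with DMSO) and low in suprabasal cells in each library.

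Fgfr2, the main FGF receptor of epithelial cells, was, among the named classes of each spiny mouse library, highest in hair germ and basal cells, and it was lower in suprabasal cells. In the DMSO library hair germ cells stood at 85.5 CPM (72.9 to 99.7), basal keratinocytes at 77.0 CPM (72.4 to 81.8), cycling basal cells at 64.8 CPM and suprabasal cells at 20.2 CPM (18.2 to 22.2). The first 2 intervals overlapped, and the suprabasal interval lay below both. T-cells stood at 16.6 CPM from 10 UMIs, so the suprabasal level is near that of the lowest classes. Chondrocytes stood at 62.4 CPM and fibroblasts at 32.8 CPM.

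The step from the basal to the suprabasal class was present in each of the 6 libraries. Basal and suprabasal cells stood at 65.4 and 15.9 CPM with the ERK inhibitor, 93.7 and 16.2 CPM with the ErbB2 inhibitor, and 83.2 and 17.0 CPM with the FGFR inhibitor. In the mouse they stood at 144 (133 to 155) and 46.2 CPM with PBS and at 154 and 46.9 CPM with FGF2/NRG1 beads. With PBS the suprabasal clusters 13 and 41 stood at 75.5 and 72.6 CPM. The other suprabasal clusters of at least 30 cells ran from 30 CPM (cluster 27) to 52.7 CPM (cluster 10, 4 UMIs). Mouse basal cells were the highest named class for Fgfr2 in both bead libraries, with hair germ cells, whose interval overlapped theirs with PBS, at 104 and 74.9 CPM and cycling basal cells at 92.2 and 98.1 CPM. With PBS, basal cells held 44.0% of the Fgfr2 UMIs of the library.

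Fgfr3, a receptor known for its role in growth cartilage, was counted in mouse chondrocytes and epidermis. Its spiny mouse counts were low under the mouse gene name, and the species are not compared. With PBS, mouse chondrocytes stood at 179 CPM (137 to 230, 61 UMIs), basal keratinocytes at 87.3 CPM (79.1 to 96.2), hair germ cells at 55.6 CPM, cycling basal cells at 50.1 CPM and suprabasal cells at 38.9 CPM. The FGF2/NRG1 library had chondrocytes at 277 CPM (258 to 297, 807 UMIs) and basal cells at 98.8 CPM. The chondrocyte interval overlapped that of no other class in either library, and fibroblasts were low, at 9.58 and 29.0 CPM. In the spiny mouse DMSO library, basal cells had 75 UMIs (5.53 CPM, 4.35 to 6.93), chondrocytes had 6 UMIs (5.76 CPM) and fibroblasts had 0. The highest DMSO value came from 1 UMI in cluster 45, and every other class overlapped it, so no order is read there; the highest FGFR inhibitor value likewise came from 1 UMI, in cluster 7 (9.39 CPM).

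**Figure D2:**
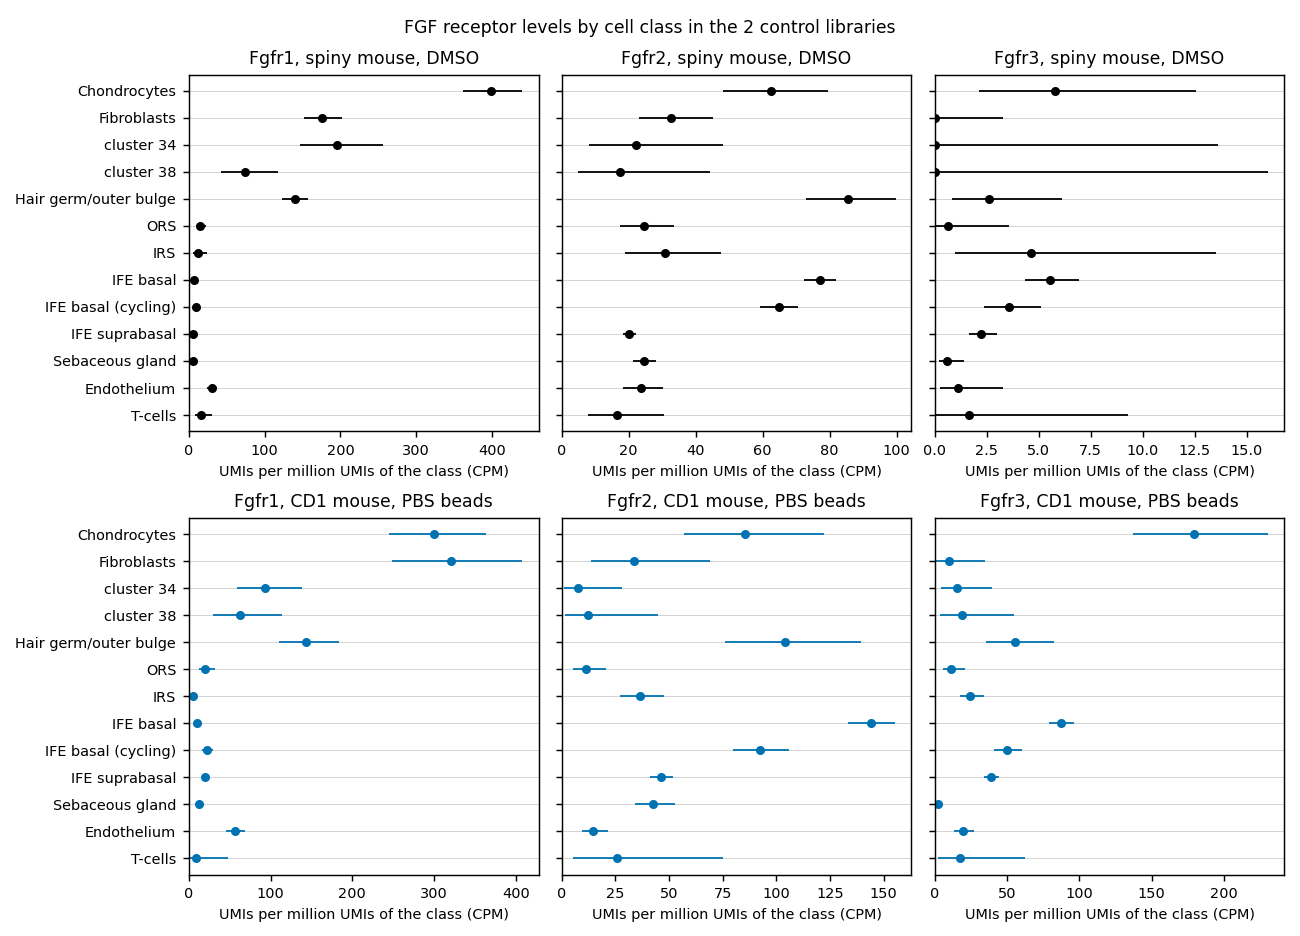
Levels of the 3 receptors (horizontal axes, CPM, each panel on its own scale) by cell class (rows) in the 2 control libraries, spiny mouse DMSO above and mouse PBS below, with points for the level and bars for the exact counting interval. Mouse Fgfr3 is highest in chondrocytes (179 CPM) and mouse Fgfr2 in basal keratinocytes (144 CPM), and the Fgfr3 panel of the spiny mouse shows levels under 10 CPM with wide intervals.

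Single cells of some mouse classes often carried UMIs of 2 receptors. Among 355 mouse basal keratinocytes with PBS, 275 had an Fgfr2 UMI, 229 an Fgfr3 UMI and 179 both. Among 248 mouse chondrocytes with FGF2/NRG1 beads, 165 had an Fgfr1 UMI, 189 an Fgfr3 UMI and 136 both. These cells were deep, with medians of 12466 and 10904 UMIs, and at median depths of 3114 and 2308 UMIs the T-cells of the same libraries had an Fgfr2 UMI in 3 of 36 cells and an Fgfr1 UMI in 2 of 136. In the spiny mouse DMSO library, 27 of 2741 basal cells had UMIs of both Fgfr2 and Fgfr3. There 43 of 923 hair germ cells had UMIs of both Fgfr1 and Fgfr2. Cells of 1 library are not replicates, and no test was made of whether the receptors occur together. Across clusters, as a description only, Fgfr2 and Fgfr3 had a Pearson correlation of 0.62 over 42 DMSO clusters and 0.63 over 17 PBS clusters, while Fgfr1 and Fgfr2 had 0.13 and 0.11. The clusters of a library share its depth and its free RNA.

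The ligands could be placed in cell types only in the mouse, and each had its own pattern. Fgf2, a ligand that binds Fgfr1 and other receptors, was counted mainly in chondrocytes. With PBS, 17 of its 39 UMIs (43.6%) came from chondrocytes, at 49.95 CPM, in 12 of 36 cells. In the FGF2/NRG1 library 237 of 281 UMIs (84.3%) came from chondrocytes, at 81.4 CPM (71.4 to 92.5), in 111 of 248 cells. In that library the interval of cluster 23, from 1 UMI, overlapped that of chondrocytes. No T-cell of either library had an Fgf2 UMI. Cluster 34 stood at 7.75 and 30.1 CPM, from 2 and 8 UMIs, and fibroblasts at 4.79 and 8.43 CPM. In the spiny mouse, 18 of the 24 Fgf2 UMIs were also in chondrocytes, with 8, 7 and 3 UMIs in the DMSO, ErbB2 inhibitor and FGFR inhibitor libraries.

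Fgf7, known as a paracrine ligand that mesenchymal cells send to keratinocytes, was counted in fibroblasts and chondrocytes. With PBS each of these classes had 5 UMIs, at 24.0 and 14.7 CPM. In the FGF2/NRG1 library fibroblasts had 103 UMIs (54.3 CPM, in 53 of 153 cells) and chondrocytes 131 UMIs (45.0 CPM, in 77 of 248 cells). Their intervals overlapped, and that of cluster 23, from 1 UMI, overlapped the fibroblast interval. Mouse keratinocytes had 2 Fgf7 UMIs in each library. Of the 248 chondrocytes, 38 had UMIs of both Fgf2 and Fgf7, and of the 153 fibroblasts, 45 had UMIs of both Fgf7 and Fgfr1.

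Fgf1, which binds all FGF receptors, was highest in the mural cluster 38, at 87.2 CPM with PBS (14 UMIs) and 66.7 CPM with FGF2/NRG1 beads (13 UMIs). Hair germ cells followed at 27.8 and 36.0 CPM, with overlapping intervals. Fgf18, a ligand known from cartilage and from the hair cycle, was highest in hair germ cells, at 64.9 CPM with PBS (28 UMIs in 13 of 74 cells) and 37.5 CPM with FGF2/NRG1 beads (25 UMIs in 14 of 139 cells). With PBS the hair germ interval overlapped those of fibroblasts (43.1 CPM) and chondrocytes (35.3 CPM). With the beads it overlapped those of cluster 38, dendritic cells and cluster 23. Chondrocytes and fibroblasts had 12 and 9 Fgf18 UMIs with PBS, but up to 9 and 6 of these came from 1 cell, and they had 7 and 6 UMIs in the larger classes of the bead library. Of the 24 spiny mouse Fgf18 UMIs, hair germ cells had 2, 1, 4 and 1 in the DMSO, ERK, ErbB2 and FGFR inhibitor libraries, and chondrocytes had 4 and 2 with DMSO and the FGFR inhibitor.

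**Figure D3:**
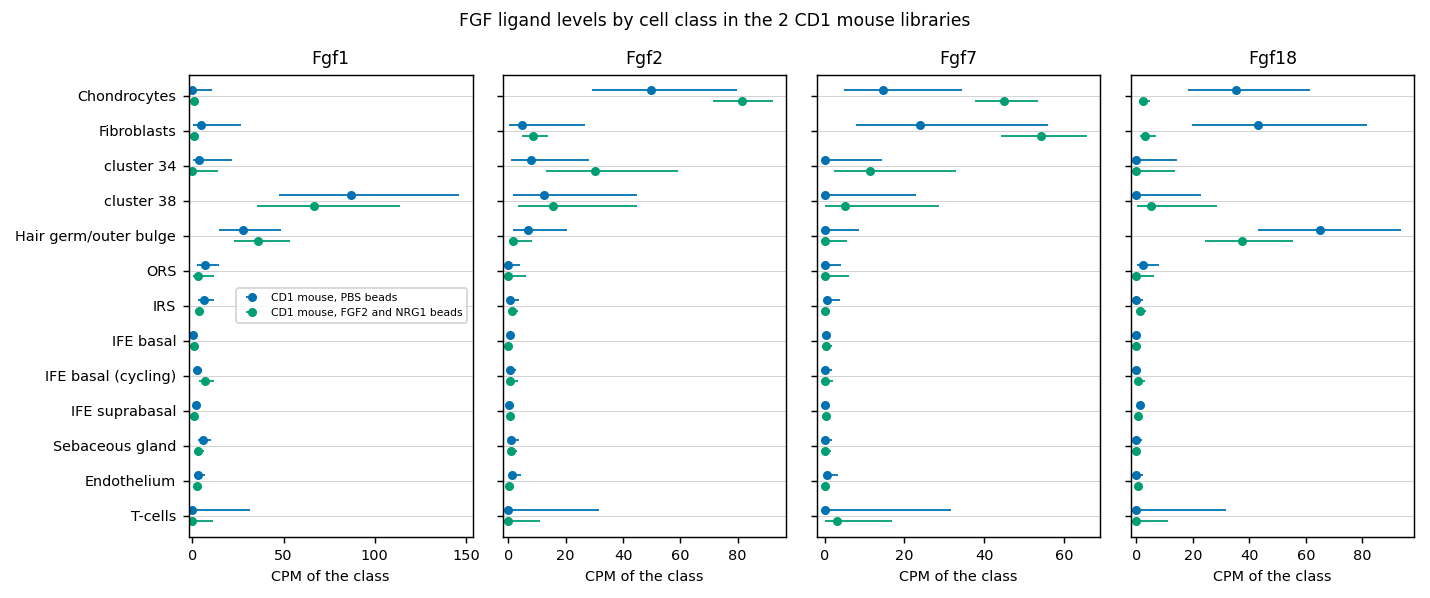
Levels of the ligands Fgf1, Fgf2, Fgf7 and Fgf18 (horizontal axes, CPM) by cell class (rows) in the mouse libraries with PBS beads (blue) and FGF2/NRG1 beads (green), with points for the level and bars for the exact counting interval. Fgf2 is highest in chondrocytes (49.95 and 81.4 CPM), Fgf7 in fibroblasts and chondrocytes, Fgf1 in cluster 38 and Fgf18 in hair germ cells. The intervals of the highest and next class overlap for Fgf1 and Fgf18 in both libraries and for Fgf2 with PBS.

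Fgfbp1, the secreted carrier of FGFs, was highest in sebaceous gland cells in all 6 libraries. In the DMSO library sebaceous cells stood at 6238 CPM (6184 to 6291) and held 45.8% of its UMIs. Outer root sheath cells stood at 1443 CPM, suprabasal cells at 1420 CPM, cycling basal cells at 1085 CPM and basal cells at 509 CPM. The median over the 25 DMSO classes was 940 CPM and the lowest was 418 CPM, so every class carried it, T-cells at 756 CPM and endothelium at 678 CPM included. By the rule given above, 7 of those 25 classes, basal cells among them, were at the level free RNA can give. T-cells and endothelium were less than 10-fold below the highest class, so the rule left them out. Sebaceous clusters differed among themselves, from 3308 CPM in cluster 18 and 4320 CPM in cluster 4 to 6476 CPM in cluster 36 and 7731 CPM in cluster 20.

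The range of Fgfbp1 over classes differed between libraries. The highest class was 14.9-fold above the lowest over 25 classes with DMSO, 30.6-fold over 21 with the ErbB2 inhibitor and 32.4-fold over 19 with the FGFR inhibitor. The ERK inhibitor library had only 8 classes of at least 30 cells, and the lowest of them, cluster 7, had 2 UMIs (7.17 CPM, 0.868 to 25.9). The sebaceous level lay between 5195 and 6238 CPM in these 4 libraries. Its clusters 18 (21 cells) and 4 (24 cells) stood at 1206 and 10709 CPM with the ERK inhibitor. With DMSO they stood at 3308 and 4320 CPM. The median over these unequal sets of classes was 157 CPM with the ERK inhibitor, 567 CPM with the ErbB2 inhibitor and 582 CPM with the FGFR inhibitor. The part of free RNA in this was not tested. In the mouse, sebaceous cells stood at 746 CPM with PBS and 830 CPM with FGF2/NRG1 beads. Mouse cycling basal, basal and suprabasal cells stood at 339, 131 and 114 CPM with PBS, and endothelium at 13.4 CPM.

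**Figure D4:**
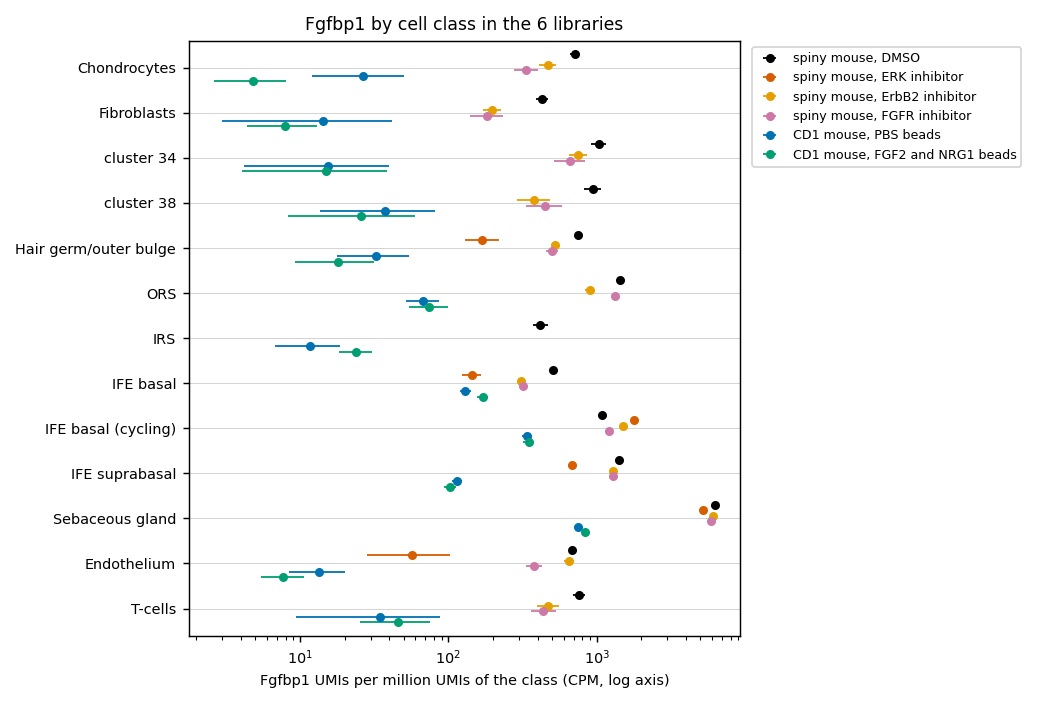
Level of Fgfbp1 (horizontal log axis, CPM) by cell class (rows) in each of the 6 libraries, 1 colour each, with points for the level and bars for the exact counting interval. Sebaceous cells are highest in every library (6238 CPM with DMSO, 746 CPM with PBS), and with the ERK inhibitor endothelium and hair germ cells lie far to the left of their DMSO points.

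Genes whose level followed each of these patterns most closely across the 42 DMSO clusters of at least 50 cells were found among 7262 genes with at least 500 UMIs, as a description with no test. Fgfr1 was most like Il11ra1 (Pearson correlation 0.89), Spats2l (0.88) and Abi3bp (0.85), whose correlations over 17 PBS clusters were 0.55, 0.85 and 0.72. Fgfr2 was most like Kif13a (0.82), Adk (0.80) and Ptprz1 (0.79), with 0.51, 0.63 and 0.79 in the mouse. Fgfbp1 was most like Hacd2 (0.88), Acaa2 (0.87) and Htatip2 (0.85), with 0.75, 0.65 and 0.46. Hacd2 elongates fatty acids and Acaa2 takes part in their oxidation.

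The next comparisons ask how inhibition of ERK, ErbB2 or FGFR in the spiny mouse relates to the transcript levels of these genes. The 3 comparisons share the DMSO library and are not independent. Each difference is a log2 ratio of CPM with 1 UMI added to each count, and a gene counts as higher or lower past 1.5-fold where it had at least 30 UMIs over both libraries. In keratinocytes 4 of the 9 genes could be measured against DMSO: the 3 receptors and Fgfbp1.

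Fgfr2 and Fgfr3 stayed within 1.5-fold under each inhibitor. Fgfr2 stood at 47.3 CPM with DMSO, 36.0 with the ERK inhibitor (log2 ratio −0.38, −0.63 to −0.16), 41.2 with the ErbB2 inhibitor (−0.20, −0.30 to −0.10) and 41.8 with the FGFR inhibitor (−0.18, −0.29 to −0.06). Fgfr3 stood at 3.57 CPM with DMSO, 3.95 with the ERK inhibitor (0.22, −0.64 to 0.86), 3.28 with the ErbB2 inhibitor (−0.12, −0.49 to 0.24) and 3.95 with the FGFR inhibitor (0.16, −0.25 to 0.54). Within basal cells alone, the Fgfr2 ratios were −0.22 with the ERK inhibitor, 0.28 with the ErbB2 inhibitor and 0.11 with the FGFR inhibitor. The sign with the ErbB2 and FGFR inhibitors thus differed between basal cells and all keratinocytes. Suprabasal cells, which have less Fgfr2, made up 2767 of 6852 keratinocytes with DMSO, 2431 of 4046 with the ErbB2 inhibitor and 1152 of 2088 with the FGFR inhibitor. Their own Fgfr2 level, given above, was also lower with both inhibitors than with DMSO. The part of the cell mix in the change of sign was not tested.

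Fgfr1 in keratinocytes was lower than with DMSO under each inhibitor, from a level at the free RNA range. It had 271 UMIs (6.48 CPM) with DMSO, 6 UMIs (1.32 CPM) with the ERK inhibitor (log2 ratio −2.08, −3.76 to −1.16), 148 UMIs (4.25 CPM) with the ErbB2 inhibitor (−0.60, −0.91 to −0.31) and 82 UMIs (3.81 CPM) with the FGFR inhibitor (−0.75, −1.14 to −0.41). In suprabasal cells the ratio was −1.80 with the FGFR inhibitor (18 against 101 UMIs) and −0.72 with the ErbB2 inhibitor (69 against 101 UMIs), while in basal cells it was 0.06 and −0.50. The ERK inhibitor ratio rested on 256 cells and became 0.14 when its clusters were weighted to the DMSO mix. With all interfollicular clusters as the authors name them, a choice made after seeing the data, the ErbB2 and FGFR inhibitor ratios were −0.19 and −0.39, inside 1.5-fold.

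Of the 4 measured genes, the ERK inhibitor library had 0 past 1.5-fold higher and 2 lower, where 11.2% and 12.2% of all 10860 measured genes were past 1.5-fold higher and lower. The ErbB2 inhibitor library had 0 higher and 1 lower, against 6.01% and 13.8% of 11408 genes. The FGFR inhibitor library had 0 higher and 1 lower, against 4.78% and 10.6% of 11204 genes. The median log2 ratios of the 4 genes were −0.49, −0.16 and −0.11.

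With the ERK inhibitor, Fgfbp1 was higher in cycling basal cells and lower in other basal and in suprabasal cells. In the cycling cells it stood at 1797 CPM against 1085 CPM with DMSO (log2 ratio 0.73, 0.64 to 0.81, 33 cells against 1344), in basal cells at 144 against 509 CPM (−1.81, −2.04 to −1.61), and in suprabasal cells at 680 against 1420 CPM (−1.06, −1.13 to −0.99). The DMSO cycling clusters themselves stood at 605 CPM (cluster 19), 1121 CPM (cluster 24) and 2140 CPM (cluster 22). The part of their mix in the cycling ratio was not tested. The sebaceous ratio was −0.26. Endothelium was lower by more (−3.45), as was cluster 7, led by neutrophil genes (−6.47, −10.11 to −5.19, 2 against 317 UMIs). By the rule given above, the DMSO level of basal cells was itself one that free RNA can give. The part of free Fgfbp1 RNA in the basal and suprabasal ratios was not tested under any inhibitor. With the ErbB2 and FGFR inhibitors the ratio was −0.71 and −0.68 in basal cells, 0.48 and 0.17 in cycling basal cells, and −0.04 and −0.08 in sebaceous cells. Over all keratinocytes Fgfbp1 stood at 1059 CPM with DMSO, 697 with the ERK inhibitor (−0.60), 1103 with the ErbB2 inhibitor (0.06) and 1025 with the FGFR inhibitor (−0.05). Weighted to the DMSO mix of clusters, the ERK inhibitor value was 0.22.

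In spiny mouse fibroblasts and chondrocytes, Fgfr1 stayed within 1.5-fold under both inhibitors that left enough cells. In fibroblasts it stood at 175 CPM with DMSO, 219 with the ErbB2 inhibitor (log2 ratio 0.32, 0.04 to 0.60) and 260 with the FGFR inhibitor (0.57, 0.18 to 0.94, 38 cells). In chondrocytes the ratios were 0.11 (−0.15 to 0.35) and 0.27 (0.00 to 0.53). Without the deepest cell of each library the fibroblast ratio with the FGFR inhibitor was 0.68, past 1.5-fold. Hair germ cells had 0.45 (0.17 to 0.72) with the FGFR inhibitor. Fgfr1 was past 1.5-fold higher in the mural cluster 38 with the FGFR inhibitor (1.12, 0.10 to 2.16, 19 against 17 UMIs) and, at the threshold, in cluster 34 with the ErbB2 inhibitor (0.59, 0.06 to 1.13, 73 against 53 UMIs). With means over cells these values were 0.39 and 0.23.

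Fgfr2 in fibroblasts was higher with the ErbB2 inhibitor (0.65, 0.03 to 1.30, 54 against 37 UMIs) and lower with the FGFR inhibitor (−0.69, −2.41 to 0.38, 6 against 37 UMIs), and thinning turned the first to −1.12. Fgfbp1 was lower in fibroblasts (−1.11 and −1.22) and chondrocytes (−0.60 and −1.08). The fibroblast class carried keratinocyte RNA in unequal amounts: a list of basal keratinocyte markers took 0.650% of its UMIs with DMSO, 0.0973% with the ErbB2 inhibitor and 0.211% with the FGFR inhibitor. Its part in the Fgfr2 and Fgfbp1 ratios was not tested. Of 3 measured genes in fibroblasts, 1 was higher and 1 lower with the ErbB2 inhibitor (11.6% and 8.08% of all genes), and 0 and 2 with the FGFR inhibitor (11.9% and 9.3%). The chondrocyte counts were 0 higher and 1 lower in both the ErbB2 inhibitor library (13.5% and 10.6% of all genes) and the FGFR inhibitor library (12.8% and 11.7%).

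Endothelial Fgfr2 was lower with the ErbB2 and FGFR inhibitors, from a level near that of the lowest DMSO classes, cluster 6 (15.6 CPM) and T-cells (16.6 CPM). It had 63 UMIs (23.7 CPM) in 977 DMSO cells, 11 (9.90 CPM) with the ErbB2 inhibitor (log2 ratio −1.16, −2.33 to −0.32) and 6 (8.10 CPM) with the FGFR inhibitor (−1.35, −3.05 to −0.35). With the ERK inhibitor it had 0 UMIs in 44 cells, which allows up to 15.6 CPM. Of the 63 DMSO UMIs, 46 lay in endothelial cluster 8 (33.7 CPM, 24.7 to 45), above the lowest classes. Endothelial clusters 17 and 29 stood at 13.2 and 13.1 CPM. The part of the mix of these clusters in the ratios was not tested. Endothelial Fgfbp1 was at 678 CPM with DMSO and 57.0, 653 and 378 CPM with the ERK, ErbB2 and FGFR inhibitors, and the part of free RNA in the Fgfr2 ratios was not tested. Endothelial Fgfr1 was at 30.5 CPM with DMSO and 46.7, 31.5 and 20.3 CPM with the ERK, ErbB2 and FGFR inhibitors.

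The last comparison asks how beads with FGF2 and NRG1 relate to these genes in the mouse, against PBS beads. In keratinocytes 5 genes could be measured and 0 were past 1.5-fold in either direction, against 4.19% of 11912 genes higher and 3.86% lower. The log2 ratios were 0.21 for Fgfr1 (−0.09 to 0.51), 0.04 for Fgfr2 (−0.09 to 0.18), 0.08 for Fgfr3 (−0.09 to 0.24), 0.52 for Fgf1 (−0.51 to 1.55, 18 UMIs in each library) and 0.14 for Fgfbp1 (0.04 to 0.24). For the 3 receptors these intervals lie inside 1.5-fold.

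Chondrocytes and fibroblasts differed more, from 36 and 32 cells with PBS. In chondrocytes Fgf7 (log2 ratio 1.36, 0.36 to 3.26, 131 against 5 UMIs), Fgf2 (0.63, −0.01 to 1.51, 237 against 17 UMIs) and Fgfr3 (0.61, 0.25 to 1.03) were higher with FGF2/NRG1 beads. Fgfr1 (−1.15, −1.46 to −0.81, 396 against 102 UMIs) and Fgfr2 (−0.80, −1.35 to −0.14, 146 against 29 UMIs) were lower. So 3 of 5 genes were higher and 2 lower, where 13.8% of all 8462 genes were higher and 26.6% lower. Thinning left 34 PBS chondrocytes, of which 5, 8 and 0 had a UMI of Fgf2, Fgfr3 and Fgfr2. On those counts Fgf2 turned to −0.77, Fgfr3 to −0.66 and Fgfr2 to 0.48, while Fgf7 and Fgfr1 kept their direction at 1.16 and −1.50. With means over cells Fgfr3 turned to −0.85 and Fgf2 to −0.34, which leaves 1 gene higher. In fibroblasts Fgf7 was at 0.93 (−0.09 to 2.83, 103 against 5 UMIs), Fgfr3 at 1.04 (−0.32 to 4.68, 55 against 2 UMIs), Fgfr1 at −0.54 (−0.90 to −0.13) and Fgfr2 at −0.03. There 2 of 4 genes were higher and 0 lower, against 17.8% and 29.1% of 7527 genes. Fgfr3 there turned to −0.077 after thinning, and 1 gene was higher after thinning, with means over cells or with a minimum of 100 UMIs.

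The chondrocyte class was not the same mixture in both bead libraries. The chondrocyte marker list took 0.682% of its UMIs with PBS and 1.63% with FGF2/NRG1 beads, with none of its 7 genes at 0, and the basal keratinocyte list took 0.602% and 0.0749%. Cells with more chondrocyte than fibroblast marker UMIs made up 17 of 36 cells and 202 of 248. Within those cells, from PBS to FGF2/NRG1 beads, Fgf2 stood at 44.7 and 75.7 CPM, Fgf7 at 22.4 and 44.5 CPM, Fgfr3 at 209 and 297 CPM, Fgfr1 at 224 and 128 CPM, and Fgfr2 at 96.9 and 48.8 CPM. The 5 genes thus went the same way in that subset as in the class. Its 17 PBS cells held only 6 Fgf2, 3 Fgf7, 28 Fgfr3, 30 Fgfr1 and 13 Fgfr2 UMIs. The part of the cell mixture in the class ratios was not tested. In the other cells of the class, 19 and 46 in number, Fgfr3 went the other way, at 160 and 132 CPM, and all 12 Fgf18 UMIs of the PBS chondrocytes lay in those cells. In hair germ cells Fgf18 was lower (−0.79, −1.63 to 0.04), and Fgfr1 stood at 144 and 145 CPM.

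**Figure D5:**
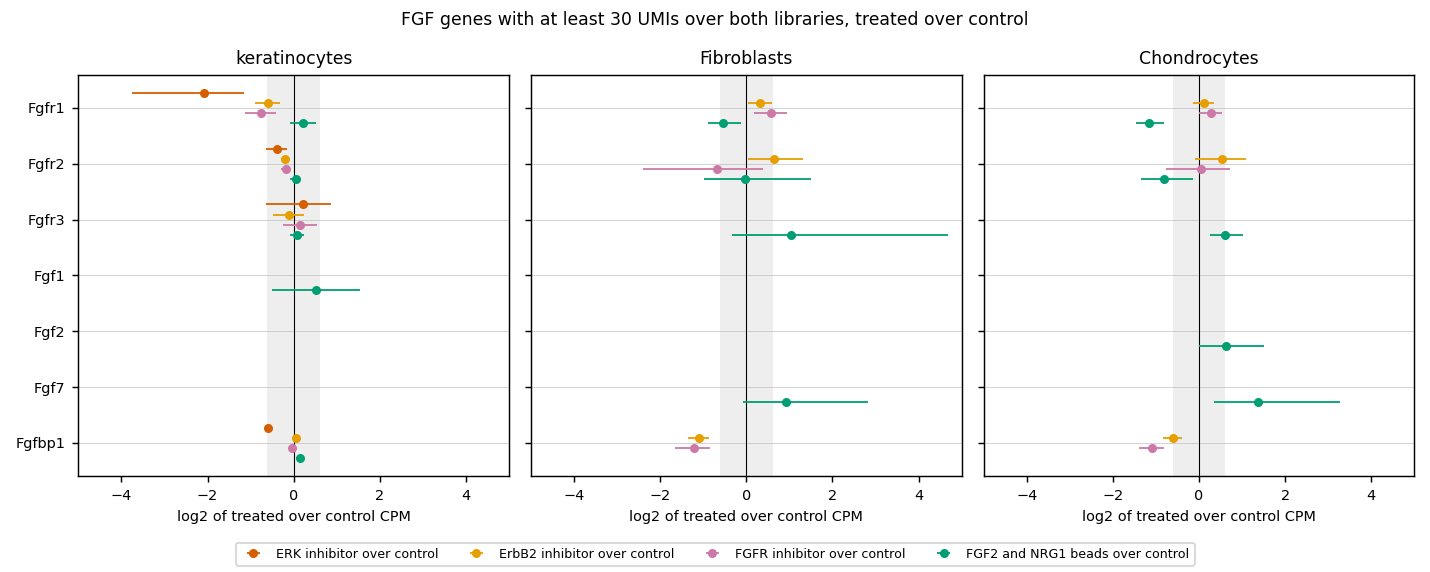
Log2 ratio of treated over control CPM (horizontal axis) for each FGF gene (rows) with at least 30 UMIs over both libraries, in keratinocytes, fibroblasts and chondrocytes, with points for the ratio, bars for the exact counting interval and a grey band for values within 1.5-fold. The keratinocyte points with FGF2/NRG1 beads lie inside the band, and the chondrocyte points with those beads run from −1.15 (Fgfr1) to 1.36 (Fgf7).

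The rest of the pathway was described in keratinocytes from 4 lists. Of the ERK feedback and target genes, the ERK inhibitor library had 9 of 13 measured lower and 1 higher (median log2 ratio −0.87, against 0.00 over all genes), where 12.2% of all measured genes were lower and 11.2% higher. The ErbB2 inhibitor library had 6 lower and 1 higher (−0.57 against −0.11), beside 13.8% and 6.01% of all genes. The FGFR inhibitor library had 2 lower and 1 higher (0.06 against −0.08), beside 10.6% and 4.78%. The bead library had 2 of 12 lower and 1 higher (0.06 against −0.02), beside 3.86% and 4.19%. Egr1, an immediate early transcription factor, had 1 UMI with the ERK inhibitor against 219 with DMSO (−3.58, −9.89 to −2.08), and was higher with the FGFR inhibitor (1.04, 0.77 to 1.31) and lower with the beads (−0.87, −1.14 to −0.62). Etv5, an ETS factor known as an FGF target, had 67 UMIs with DMSO, 0 with the ERK inhibitor and 14 with the FGFR inhibitor (−1.22, −2.25 to −0.46). Thinning left its ERK inhibitor ratio at 0.48, which rests on the 1 UMI added to a count of 0 and gives no direction. Dusp6, a phosphatase that switches ERK off, was higher with the beads (0.64, 0.09 to 1.21, 59 against 54 UMIs), Etv4 was at 0.47 (−0.37 to 1.30), and Dusp5 was lower (−1.01, −2.02 to −0.20).

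With the ErbB2 inhibitor Fosl1, an AP-1 subunit, was lower (−1.69, −2.46 to −1.06), and Dusp5 was higher (1.09, 0.67 to 1.53). Of the 17 measured heparan sulphate and co-receptor genes, 3, 5 and 2 were below DMSO and 1, 1 and 0 above it past 1.5-fold in the ERK, ErbB2 and FGFR inhibitor libraries, and 0 of 18 were past 1.5-fold with the beads. The shares of all genes are those given for the targets above, and the FGFR inhibitor count is near its share. The medians of this list were −0.20, −0.36, −0.12 and −0.12 in the 4 comparisons. The extremes were Ndst1, a heparan sulphate sulphotransferase, with the ERK inhibitor (1.06, 14 against 65 UMIs), the proteoglycan Hspg2 with the ErbB2 inhibitor (−1.58, 14 against 53 UMIs, 0.78 after thinning) and the glypican Gpc6 with the FGFR inhibitor (−1.28, 6 against 32 UMIs). Of the 18 measured genes of the chain from adaptor to ERK, 3 were higher with the ERK inhibitor, beside 11.2% of all genes, among them Cbl (1.30, 10 against 40 UMIs, −0.070 with means over cells), and 0 were past 1.5-fold in the other comparisons.

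Of the 22 other FGF family genes, 13 were in the table. Among the ligands, Fgf22, related to Fgf7 and Fgf10, had the most spiny mouse UMIs under a mouse gene name. Other ligands may be undercounted there, so this is not an order of levels between genes. Fgf22 had 290, 29, 457 and 201 UMIs in the DMSO, ERK, ErbB2 and FGFR inhibitor libraries. In keratinocytes it stood at 2.56 CPM with DMSO, 9.20 with the ErbB2 inhibitor (log2 ratio 1.84, 1.53 to 2.18) and 7.58 with the FGFR inhibitor (1.56, 1.20 to 1.93). With the ERK inhibitor it was the only measured gene of this list there and was also higher (0.90). Of 2 measured genes, 1 was higher and 1 lower with each of the ErbB2 and FGFR inhibitors. With the beads 0 of 3 were higher and 1 lower. The shares of all genes are those given above. Inner root sheath cells held the highest Fgf22 level, at 151 CPM with DMSO (98 UMIs) and at 58.2 and 59.0 CPM in the mouse. The part of free RNA in the keratinocyte levels was not tested.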

How the data were processed

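The authors deposited raw UMI counts for each gene in each cell, and a second deposited table with each cell's library, cluster and cell type; its percent of UMIs from mitochondrial, haemoglobin and ribosomal genes, per the file headers, was not used. Cell Ranger 6.1.1 and GRCm38 (mm10) are named in the submitters' processing notes; no source used here states how cells were filtered or whether doublets were removed, and no doublet caller was run. Every cell had at least 501 genes. The genes described and the pathway and marker lists were chosen with earlier results of these data known.

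Counts were summed per library and class of at least 30 cells and scaled to CPM, with exact Poisson intervals. Ratios had 1 UMI added to each count and exact conditional binomial intervals; a direction needed 30 UMIs over both libraries and 1.5-fold. A count of 0 was given a floor of 3 UMIs. A class was named only where its leading 10 genes held no more markers of another type than of its own. Python 3.11.15, numpy 2.4.6, scipy 1.17.1 and pandas 2.3.3 were used, and the scripts were tested on simulated data. Named besides the 9 genes are the 3 genes most like each member with at least 500 DMSO UMIs and, from the pathway lists, the 2 highest and 2 lowest keratinocyte ratios per comparison; Fgf22 levels by class were added after values were seen. Alternatives were a pseudocount of 0.5, thinning to 1000 UMIs, means over cells, leaving out the deepest cell, another denominator, other minimums, weighting to the control mix of clusters, and all annotated interfollicular clusters.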

Additional observations from a re-analysis of the deposited data

How the results depend on the processing

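Each group has 1 library, so no replicate could be left out, and no paired analysis was possible because no comparison has more than 1 library on either side. Of 207 gene ratios, 207 kept their value within counting error with a pseudocount of 0.5, 203 without the deepest cell, 202 with the denominator without haemoglobin, mitochondrial and ribosomal protein genes, and 133 after thinning to 1000 UMIs, where 60 moved and 14 changed sign. With means over cells 172 of 205 kept their value, and 4 changed sign. In every case the cause was not tested, beyond the smaller counts that thinning leaves.

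Log2 ratios that changed sign after thinning were, with the ERK inhibitor, Fgfr1 in basal (0.53), cycling basal (1.16) and suprabasal cells (0.34) and Etv5 in keratinocytes (0.48). Of 244 thinned ERK inhibitor keratinocytes, 0 had an Fgfr1 UMI, and Etv5 had 0 UMIs there before thinning. The positive values thus rest on the 1 UMI added to a count of 0 and give no direction. With the ErbB2 inhibitor they were Fgfr2 in fibroblasts (−1.12), Fgfr1 in cluster 44 (−1.36) and Hspg2 in keratinocytes (0.78). With FGF2/NRG1 beads they were Fgfr2 (0.48), Fgfr3 (−0.66) and Fgf2 (−0.77) in chondrocytes, Fgfr3 in fibroblasts (−0.077), Fgfbp1 in endothelium (1.13) and inner root sheath (−0.29), and Fgfr1 in cluster 14 (−0.086). With means over cells they were Fgfr1 in ERK inhibitor cycling basal cells (1.83), Cbl with the ERK inhibitor (−0.070), and Fgfr3 (−0.85) and Fgf2 (−0.34) in chondrocytes with the beads. Weighting to the DMSO mix gave 0.14 for Fgfr1 and 0.22 for Fgfbp1 with the ERK inhibitor in keratinocytes.

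Counts of genes past 1.5-fold are small and moved as follows. With the ERK inhibitor in keratinocytes, 1 was higher with no minimum of UMIs or with means over cells. The 2 lower became 1 after thinning, with means over cells, without the deepest cell and with the other denominator, and 0 weighted to the DMSO mix. With the ErbB2 inhibitor in keratinocytes, 3 were higher with no minimum, and 0 were lower with means over cells, weighted to the DMSO mix, or with all annotated interfollicular clusters; in chondrocytes 1 was higher and 2 lower with no minimum. In fibroblasts 2 were higher with no minimum, 0 with a minimum of 100 UMIs or after thinning, and 2 were lower after thinning. With the FGFR inhibitor, 1 was higher in keratinocytes after thinning and 0 lower with all annotated clusters, and 1 was higher in chondrocytes with no minimum. In fibroblasts 1 was higher after thinning, with means over cells and without the deepest cell, and 1 was lower with a minimum of 100 or without the deepest cell. With FGF2/NRG1 beads, 1 was higher in keratinocytes with means over cells and with all annotated clusters. In chondrocytes 1 was higher after thinning or with means over cells, and 5 were lower with no minimum. In fibroblasts 1 was higher with a minimum of 100, after thinning or with means over cells, 4 were lower with no minimum and 1 after thinning.

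By means over cells, fibroblasts took place 2 for Fgfr1 with PBS and hair germ cells place 2 for Fgfr2 with DMSO. Cluster 45, first for Fgfr3 with DMSO from 1 UMI, took place 15 by thinned share and place 6 by means over cells. No ratio could be given for the ligands in the spiny mouse, whose counts were too few. The ERK inhibitor library, with 631 cells, limits every class compared with it.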

Other observations

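Fgfrl1, an FGF receptor without a kinase domain, was counted in mouse chondrocytes, with 34 UMIs (99.9 CPM) with PBS and 639 UMIs (220 CPM) with FGF2/NRG1 beads. Fibroblasts stood at 9.58 and 48.0 CPM. In spiny mouse DMSO chondrocytes it had 18 UMIs (17.3 CPM).

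Fgfr4, the fourth receptor with a kinase domain, was highest in cluster 34 at 36.9 CPM with DMSO (10 UMIs), 48.5 CPM with the ErbB2 inhibitor and 66.8 CPM with the FGFR inhibitor. Fgfbp3, a second FGF binding protein, had 0 UMIs in the spiny mouse and, like Fgfbp1, was counted in mouse sebaceous cells, at 35.5 CPM with PBS and 51.9 CPM with FGF2/NRG1 beads. Fgf9 stood at 8.97 CPM in mouse endothelium with FGF2/NRG1 beads.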
